A study of Mus musculus with 8 samples.

Results

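The high-numbered miRNAs are the mature microRNAs of the mouse whose name carries a number of 1000 or more, the part of the catalogue that was named after deep sequencing of small RNA became common. Members were chosen by name and by a total of 10 or more counts over the 8 libraries, after the precursor entries of a miRNA had been summed. The hairpins miR-1843, miR-1981, miR-1193, miR-1197 and miR-3072 were left out. This gave 230 members of 1978 mature miRNAs in the table, and 230 of 646 with a total of 10 or more counts. The total was used to choose them, so the fact that they were detected is a description. No file gives the year in which a miRNA was named, so "high-numbered" is used here for the number alone.

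The libraries hold small RNA of CD8+ T cells, the killer cells among lymphocytes, from the spleen of C57BL/6 mice, an inbred laboratory strain. Neonatal libraries came from mice 5 to 7 days old (n = 4) and adult libraries from mice 12 weeks old (n = 4). No treatment, allele or transgene is given for either group. Magnetic enrichment on CD8a leaves some other cells. Whether a library came from 1 mouse or several is not given, so a p-value here weighs a difference against the spread of these libraries, which may be technical.

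A miRNA is cut from a hairpin in a longer transcript, first by Drosha with its partner DGCR8 in the nucleus and then by Dicer in the cytoplasm, and one strand is loaded into an Argonaute protein, where the seed near its 5′ end pairs with messenger RNA. Some hairpins avoid Drosha. Mirtrons are whole short introns released by splicing, and some small nucleolar RNAs (snoRNAs, which guide the modification of ribosomal RNA), small Cajal body RNAs (scaRNAs, their relatives for splicing RNA) and transfer RNAs are also cut into pieces of miRNA length. Late additions to the catalogue include many such cases, along with hairpins that give few reads in any tissue.

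The members on which the results turn are shown first, as mature RNA from RefSeq for GRCm38.p6, 5′ to 3′, with the seed (bases 2 to 8) in capitals. A RefSeq sequence was matched to 204 of the 230 members. The first set holds the most abundant members with a sequence whose hairpin lies outside snoRNA and scaRNA genes.
miR-3968: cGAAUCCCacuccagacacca
miR-1198-5p: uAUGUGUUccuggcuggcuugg
miR-3963: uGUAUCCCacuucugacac
miR-1964-3p: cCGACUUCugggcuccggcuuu
The second set holds members cut from, or overlapping, snoRNA and scaRNA genes.
miR-1839-5p: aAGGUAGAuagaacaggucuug
miR-3535: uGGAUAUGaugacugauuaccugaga
miR-5121: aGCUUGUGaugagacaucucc
miR-3068-5p: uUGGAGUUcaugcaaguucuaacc
miR-3068-3p: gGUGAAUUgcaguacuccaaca
miR-1291: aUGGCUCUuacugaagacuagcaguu
miR-6516-5p: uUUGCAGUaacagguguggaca
miR-6516-3p: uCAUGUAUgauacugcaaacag
The third set holds members that were higher in neonatal libraries, with both arms of the Dgcr8 hairpin.
miR-5134-3p: aCGGGUGGcccucuuucugcag
miR-3080-5p: uGAAGCGCcuguucuuggau
miR-1983: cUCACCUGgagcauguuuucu
miR-3057-5p: aUUGGAGCugagauucugcgggau
miR-7688-5p: uAGCUGGGcaugaucugaugagc
miR-1930-5p: aCCUCCAUaguaccugcagcgu
miR-7661-3p: uUGACUCCcaguuucucucugc
miR-1306-5p: cACCACCUccccugcaaacgucc
miR-1306-3p: aCGUUGGCucugguggugaug
The last set holds members outside snoRNA and scaRNA genes that were lower.
miR-3964: aUAAGGUAgaaagcacuaaa
miR-1955-5p: aGUCCCAGgaugcacugcagcuuuu
miR-6406: cGCGACCUcaggcugacucaug
No seed in these lines occurs more than once. Over all members and the 331 other miRNAs with a sequence, 10 seeds were shared between a member and any other miRNA of the set. Of these, miR-1961 (64.5 counts, of which 61.2% were fractions of reads shared among places) carries the let-7 seed GAGGUAG, which 10 other detected miRNAs carry too, and miR-7661-3p shares UGACUCC with miR-3077-3p.

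Levels are given as CPM, counts scaled to library size, and corrected by TMM, which sets library sizes from the miRNAs that differ least between libraries. Adapter ligation favours some sequences, so the order of different miRNAs within a library is a description only. Library totals were 1281032 to 2606630 counts, so 3 counts, the upper limit behind a 0, stand for 1.07 to 1.6 CPM (neonatal) and 1.43 to 2.91 CPM (adult). Copies made in amplification are counted too, so such limits and the intervals below cover counting error only. TMM factors ran from 1.16 to 1.3 (neonatal) and from 0.788 to 0.812 (adult). A count was found for 688 to 787 miRNAs per neonatal and 608 to 685 per adult library. Of 8 miRNAs listed for T cells, none was at 0, and their summed level was 93446 to 100836 CPM in neonatal and 201575 to 258749 CPM in adult libraries, with 7 of 8 lower in neonatal libraries. Erythroid miRNAs summed to 308 to 775 and 120.4 to 252 CPM with 3 of 3 tested higher, endothelial to 125 to 160.2 and 46.6 to 77.0 CPM with 2 of 2 higher, and stromal to 114 to 169.9 and 37.1 to 84.0 CPM with 3 of 3 higher. Epithelial miRNAs summed to 2690.0 to 3398 and 3852 to 4482 CPM with 3 of 5 lower, and liver and muscle miRNAs to 757 to 1597 and 249 to 408 CPM with 1 of 3 higher. Myeloid miRNAs stood at 3.49 to 8.54 and 2.85 to 9.10 CPM and none passed the count filter. The part of such cells in the changes below was not tested.

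Most members were rare, and few of them carried nearly all of the counts. The number range held 1110 mature miRNAs in the table, of which 618 had no count in any library, 262 had fewer than 10 counts and 230 were members. The 7 members miR-5099, miR-3968, miR-1839-5p, miR-3535, miR-1198-5p, miR-5121 and miR-3963, together held 92.3% of the members' counts, and miR-5099 and miR-3968 alone held 57.6%. The other 223 members shared 7.72%. A total of 10 to under 20 counts was found for 69 members (30.0%) and for 29 of the 416 other miRNAs (6.97%), and a total of 1000 or more for 13 members (5.65%) and 164 others (39.4%). The plot of count totals shows these classes.

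**Figure D1:**
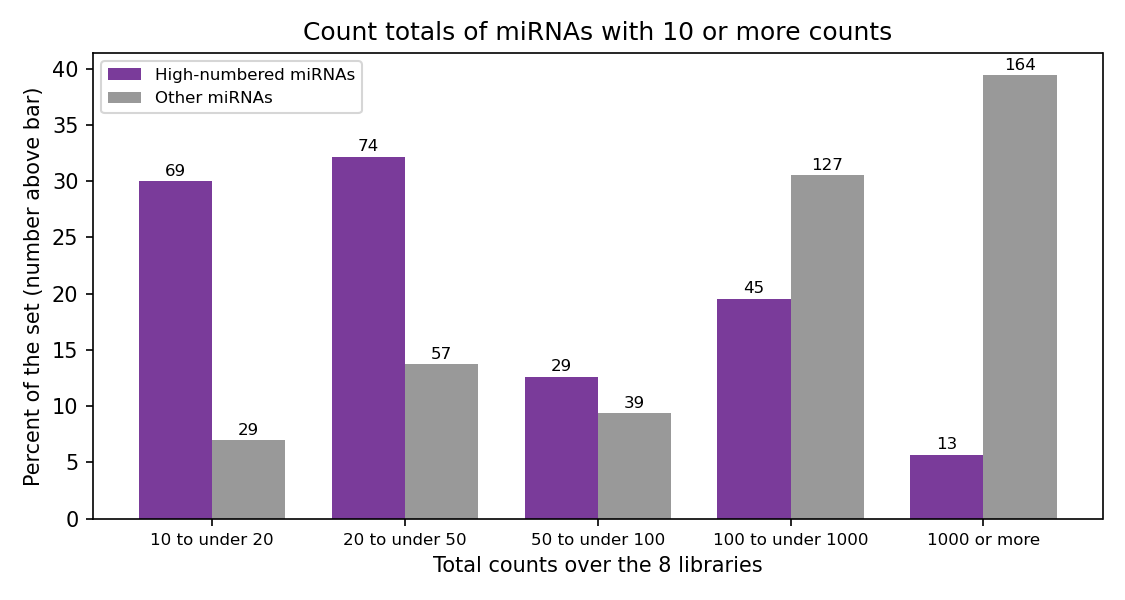
Percent of high-numbered miRNAs (230, purple) and of other miRNAs (416, grey) in classes of total counts over the 8 libraries, with the number of miRNAs above each bar. The high-numbered set is highest at 20 to under 50 counts (74 miRNAs) and the other set at 1000 or more (164).

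Members took a larger share of the counts in neonatal libraries before TMM scaling. The share was 3.82, 2.78, 3.61 and 2.87% in neonatal libraries 1 to 4 (3.27 ± 0.522%, SD, n = 4) and 2.59, 1.29, 2.25 and 1.61% in adult libraries 1 to 4 (1.93 ± 0.589%). All neonatal libraries were above all adult ones. Without miR-5099 the share was 1.88 ± 0.202% and 1.29 ± 0.258%. These are shares of library totals without TMM scaling. The TMM factors lower every neonatal share and raise every adult one, and the groups then overlap, with adult library 1 the highest. The larger neonatal share thus depends on the scaling. Members with a count numbered 195 to 224 per neonatal and 165 to 198 per adult library. In bulk samples, fewer cells of a type and less RNA per cell cannot be told apart.

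A smaller share of the members than of all tested miRNAs passed the test. The comparison asked which of them change with age in CD8+ T cells, with edgeR's quasi-likelihood test over all 375 miRNAs past a count filter and a Benjamini-Hochberg adjusted p under 0.05. Of all 375, 63.2% changed, 29.1% higher and 34.1% lower in neonatal libraries. Of the 71 members past the filter, 33 changed (46.5%), 23 higher (32.4%) and 10 lower (14.1%). The median log2 fold change was 0.22 over these 71, −0.18 over the 304 others and −0.05 over all 375. The share of members that rose was near that of all miRNAs, and the share that fell was below it. Members past the filter were rarer than the others. At 1000 counts or more, 15.4% of 13 members and 23.2% of 164 others were higher, and 30.8% and 46.3% lower. At 100 to under 1000 counts, 33.3% of 45 and 34.4% of 125 were higher, and 11.1% and 30.4% lower. At 50 to under 100 counts, 46.2% of 13 and 33.3% of 15 were higher, and 7.69% and 26.7% lower. Libraries of the ages did not overlap for 24 of the 71 (33.8%), 17 higher and 7 lower, against 57.3% of all tested, 26.4% higher and 30.9% lower. A filter that a miRNA can pass through its higher group favours changed miRNAs, so these counts describe the members past it and not the 159 others.

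The same test on all 646 miRNAs with a total of 10 or more took in every member. Of all 646, 43.2% changed, 22.1% higher and 21.1% lower. Of the 230 members, 58 changed (25.2%), 47 higher (20.4%) and 11 lower (4.78%), with a median log2 fold change of 0.54 against −0.04 for the other 416 and 0.15 for all. The 159 members that the count filter left out held 1.07% of the members' counts, and their summed level was 281 to 325 CPM in neonatal and 187 to 235 CPM in adult libraries, with no overlap.

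The balance of rises and falls rested on how libraries were scaled. With library totals in place of TMM the median of all 375 moved from −0.05 to 0.58 and that of the members to 0.86. Then 39 members were higher and 4 lower (54.9% and 5.63%), against 49.6% and 18.1% of all (67.7% in either direction). Members were richer in G and C than the others, with a median GC content of 54.5% against 47.6%. With an offset for GC content fitted in each library (314 of 375 had a sequence, and the others, miR-5099 among them, got no offset), 16 members were higher and 14 lower (22.5% and 19.7%), against 28.5% and 35.7% of all (64.3% in either direction), and the members' median was −0.01. A fit blocked by replicate number called 27 members higher and 12 lower (38.0% and 16.9%), against 33.3% and 37.3% of all (70.7% in either direction).

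**Figure D2:**
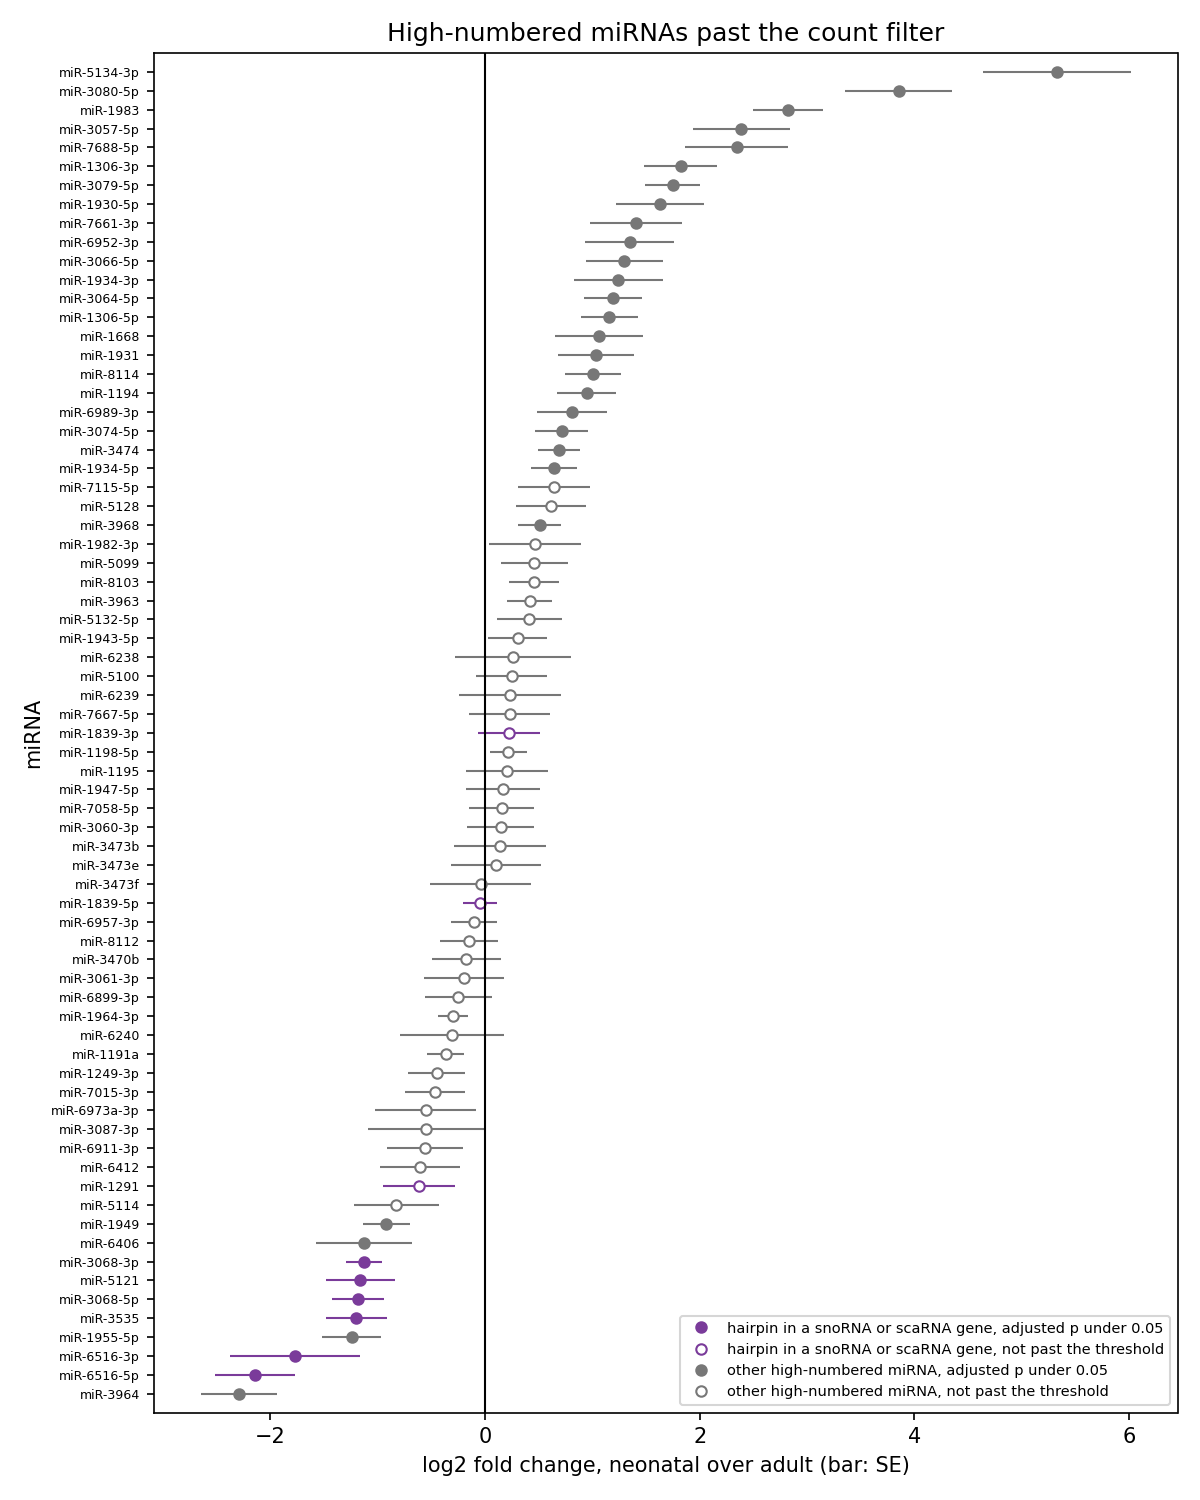
Log2 fold change, neonatal over adult, of the 71 high-numbered miRNAs past the count filter, with bars of the SE (n = 4 libraries a group). Filled points have an adjusted p under 0.05 and purple points have a hairpin in a snoRNA or scaRNA gene. Changes run from −2.29 (miR-3964) to 5.33 (miR-5134-3p), and 6 of the 10 lower ones are purple.

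Of the 10 members with the highest mean CPM over the 8 libraries, 1 rose, 4 fell and 5 did not pass the test, and the 4 that fell all come from snoRNA genes described further down. The tenth, miR-3068-5p, had a mean of 130.8 CPM and 2009 counts, and the next, miR-1191a, had 129.8 CPM and 2059 counts and did not pass the test, so a ranking by counts would hold 3 that fell. miR-5099, with 154139 counts (38.3% of the members' counts), stood at 13554, 9237, 12229 and 9179 CPM in neonatal libraries 1 to 4 and at 12779, 3626, 9931 and 5801 CPM in adult libraries 1 to 4. Adult libraries 1 and 3 lay within the neonatal range, and adult libraries 2 and 4 below it. The difference did not pass the test (log2 fold change 0.46 ± 0.31, adjusted p = 0.214). It was called with library totals (1.10 ± 0.33, adjusted p = 0.0109), when blocked by replicate number (0.60 ± 0.16, adjusted p = 0.00177) and without adult library 1 (0.80 ± 0.28, adjusted p = 0.0288). Its hairpin lies outside annotated genes (chr12:36816205-36816278, GRCm38, plus strand).

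miR-3968 stood at 5669, 4254, 6127 and 5798 CPM in neonatal libraries 1 to 4 and at 4123, 3193, 5271 and 2766 CPM in adult libraries 1 to 4. Its groups overlapped through adult library 3. It rose (log2 fold change 0.51 ± 0.20, adjusted p = 0.0419). The call was lost with the GC offset (0.23 ± 0.16, adjusted p = 0.245) and without neonatal library 1 or 3 or adult library 2 or 4 (adjusted p = 0.0653, 0.0950, 0.0670 and 0.0718). The hairpin lies on the minus strand of chromosome 11 (chr11:115447961-115448060), outside genes of that strand and opposite Trim80.

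miR-3963, at 745, 583, 732 and 1085 CPM in neonatal libraries 1 to 4 and at 642, 447, 732 and 535 CPM in adult libraries 1 to 4, overlapped between groups and did not pass the test (log2 fold change 0.42 ± 0.21, adjusted p = 0.0969). This depended on the setting. It passed as higher with library totals (1.04, adjusted p = 0.000586), RLE scaling (0.54, adjusted p = 0.026), DESeq2 (0.54, adjusted p = 0.0179), no count filter (0.50, adjusted p = 0.0141), a filter of at least 10 CPM in 4 libraries (0.46, adjusted p = 0.0371) and the block by replicate number (0.40 ± 0.15, adjusted p = 0.0171). It also passed without neonatal library 2 (0.61, adjusted p = 0.0164) or adult library 3 (0.57, adjusted p = 0.0259).

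miR-3968 ends in the letters CCA, which transfer RNAs carry at their 3′ end after processing. Of the 204 members with a sequence, 2 end so (0.980%), as do 3 of the 331 others (0.906%). These shares count rare and abundant miRNAs alike, and miR-3968 is among the 7 most abundant members. Whether its reads come from transfer RNAs was not tested.

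miR-1198-5p, from an intron of Gripap1 on the X chromosome (chrX:7807101-7807221, plus strand), stood at 2029.8, 1543, 1710.1 and 1295 CPM in neonatal libraries 1 to 4 and at 1738, 1239.6, 1433 and 1253 CPM in adult libraries 1 to 4. The groups overlapped and the test was not passed (log2 fold change 0.22 ± 0.17, adjusted p = 0.285). It passed as higher with library totals (0.86 ± 0.18, adjusted p = 0.00128) and without neonatal library 4 (0.42, adjusted p = 0.0381). With the GC offset its sign turned (−0.03). miR-1964-3p, from Zfp84 on chromosome 7, stood at 299, 337, 277 and 308 CPM in neonatal libraries 1 to 4 and at 405, 349, 349 and 402 CPM in adult libraries 1 to 4. All neonatal libraries were below all adult ones, yet the test was missed (log2 fold change −0.30 ± 0.14, adjusted p = 0.0745). It was lower with the GC offset (−0.70 ± 0.15, adjusted p = 0.00145) and higher with library totals (0.33 ± 0.13, adjusted p = 0.0389), so its direction depends on the scaling.

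**Figure D3:**
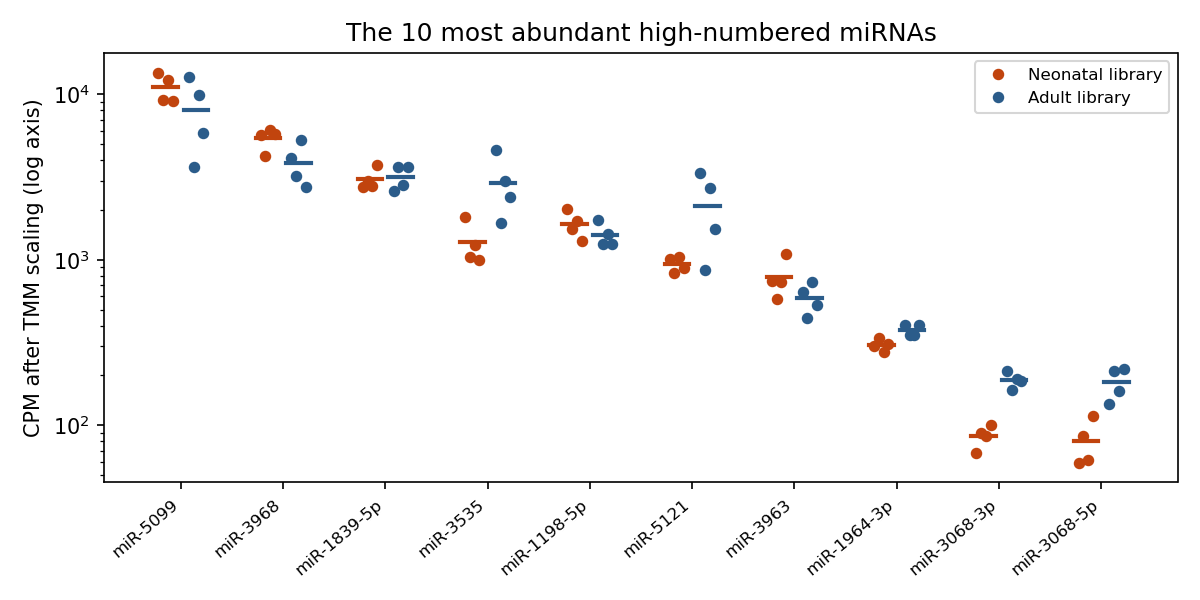
Level (CPM after TMM scaling, log axis) of the 10 most abundant high-numbered miRNAs in each neonatal (red) and adult (blue) library. Short lines are group means. Those called lower, miR-3535, miR-5121, miR-3068-3p and miR-3068-5p, have lower neonatal means, while miR-5099 spans 3626 to 12779 CPM among adult libraries.

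Adult libraries 1 and 3 were both above adult libraries 2 and 4 for 6 of the 7 most abundant members, and both below for the remaining one, miR-1839-5p. Over the 71 tested members this order (1 and 3 above) was found for 41 (57.7%), and over the 304 other miRNAs for 89 (29.3%). The reverse order (1 and 3 below) was found for 6 members (8.45%) and 99 others (32.6%). In neonatal libraries 1 and 3 were above for 23 of 71 (32.4%) and 47 of 304 (15.5%), and below for 6 (8.45%) and 137 (45.1%). The numbers thus divided the other miRNAs as well, more often in the reverse direction. Adult library 2 was the lowest adult library for 40 of the 71 members (56.3%) and for 87 of the 304 others (28.6%). What a number stands for is not given, and the part of this order in the members' changes was not tested beyond the block. A wide spread within a group was found for a larger share of members. The highest adult library was more than 2-fold above the lowest for 43 of 71 members (60.6%) and 82 of 304 others (27.0%), and in neonatal libraries for 23 (32.4%) and 75 (24.7%). Members had smaller counts, which scatter more, with a total of 1000 or more for 13 of the 71 and 164 of the 304. The variation that edgeR fitted beyond counting error had a median of 23.1% for members and 19.6% for others. The part of counting error in the wider spread was not tested.

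Most tested members from snoRNA and scaRNA genes were lower in neonatal libraries. Hairpins of 12 members (8 hairpins) lay in such a gene on the same strand, and these 12 held 27.3% of the members' counts. Of the 9 that passed the count filter, 6 fell (66.7%) and 0 rose, with a median log2 fold change of −1.16, against 34.1% lower, 29.1% higher and a median of −0.05 for all tested. In the fit of all miRNAs with 10 or more counts, 6 of the 12 fell, against 21.1% of all 646, and 0 rose (median −1.17). With library totals, 2 of the 9 were higher, both arms of mir-1839, and 3 lower (median −0.53), and with the GC offset 5 were lower (median −0.99). Leaving out each library in turn left 5 or 6 lower. The 8 other miRNAs in such genes (4 hairpins), among them miR-664 and miR-1843, counted 5 lower and 0 higher, with a median of −1.11. Arms of the same hairpin are not separate cases, and the 6 members that fell include both arms of mir-3068 and of mir-6516. The letters of the mature miRNA were found whole in a GENCODE snoRNA or scaRNA transcript for 11 members. Reads of the miRNA and of other pieces of the snoRNA with the same letters cannot be told apart.

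**Figure D4:**
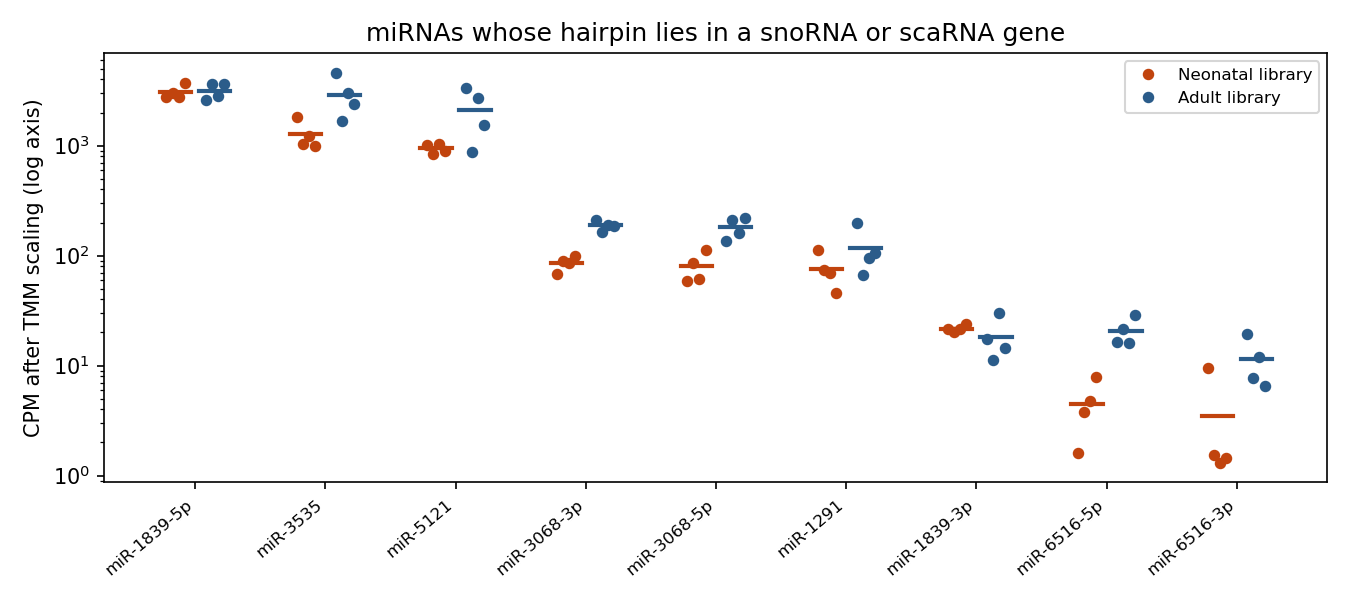
Level (CPM after TMM scaling, log axis) of the 9 tested miRNAs with a hairpin in a snoRNA or scaRNA gene, in each neonatal (red) and adult (blue) library, with group means as short lines. The neonatal mean is lower for all but miR-1839-3p, and neonatal library 1 stands apart for miR-6516-3p.

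The 2 most abundant members that fell are pieces of snoRNAs. miR-5121 is bases 3 to 23 of Snord33, an 84-base snoRNA of the class that guides methylation, within the ribosomal protein gene Rpl13a (chr7:45126918-45126991, minus strand). miR-3535 is bases 1 to 26 of Gm24148, an 80-base snoRNA within Ncl, the nucleolin gene (chr1:86351981-86352127, minus strand). Both are printed as DNA letters of the GENCODE transcript, with the stretch of the miRNA in capitals.
Snord33: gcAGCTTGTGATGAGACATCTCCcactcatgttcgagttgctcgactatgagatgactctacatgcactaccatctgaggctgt
Gm24148: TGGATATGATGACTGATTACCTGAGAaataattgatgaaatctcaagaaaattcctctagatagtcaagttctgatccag
miR-3535 stood at 1823, 1039, 1229.5 and 999 CPM in neonatal libraries 1 to 4 and at 4629, 1660.3, 2985 and 2404 CPM in adult libraries 1 to 4. It fell (log2 fold change −1.20 ± 0.29, adjusted p = 0.00279), with overlap between neonatal library 1 and adult library 2. miR-5121 stood at 1009, 834, 1044 and 889 CPM in neonatal libraries 1 to 4 and at 3332, 869, 2706 and 1538 CPM in adult libraries 1 to 4. It also fell (log2 fold change −1.16 ± 0.32, adjusted p = 0.0067), with adult library 2 inside the neonatal range and the other adult libraries above it. With library totals neither passed (−0.55, adjusted p = 0.117, and −0.53, adjusted p = 0.171).

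Both arms of mir-3068, which GENCODE lists as a snoRNA in Alkbh1, fell by a similar amount. miR-3068-5p stood at 59.2, 85.5, 61.4 and 113 CPM in neonatal libraries 1 to 4 and at 135, 213, 159.7 and 219 CPM in adult libraries 1 to 4, and miR-3068-3p at 67.8, 89.6, 85.8 and 100.1 CPM in neonatal libraries 1 to 4 and at 213, 164, 190.2 and 186 CPM in adult libraries 1 to 4. For both arms all neonatal libraries were below all adult ones. The log2 fold changes were −1.18 ± 0.24 (adjusted p = 0.000942) and −1.13 ± 0.17 (adjusted p = 9.73e-05). The arms shared the counts nearly evenly, with the 5p arm at 48.6% of pooled neonatal counts (41.7 to 53.1% by library) and 49.9% of pooled adult counts (38.8 to 56.5%).

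The scaRNA Gm26083, 193 bases long in the host gene Snhg20, holds miR-6516-5p at bases 128 to 149 and miR-6516-3p at bases 170 to 191. miR-6516-5p stood at 1.6, 3.81, 4.79 and 7.87 CPM in neonatal libraries 1 to 4 and at 16.5, 21.7, 16.2 and 28.6 CPM in adult libraries 1 to 4, without overlap, and fell (log2 fold change −2.14 ± 0.37, adjusted p = 0.000295). miR-6516-3p stood at 9.60, 1.53, 1.31 and 1.43 CPM in neonatal libraries 1 to 4 and at 19.4, 7.70, 11.9 and 6.52 CPM in adult libraries 1 to 4, and neonatal library 1 lay within the adult range. Its log2 fold change was −1.77 ± 0.61 (adjusted p = 0.0216), and −2.85 without neonatal library 1. The call was lost without neonatal library 2, 3 or 4 (adjusted p = 0.0905, 0.0566 and 0.0753) or adult library 1 or 3 (0.0743 and 0.0723), with library totals (0.128) and with the GC offset (0.0827).

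Neither arm of mir-1839 passed the test, nor did miR-1291. miR-1839-5p, which GENCODE places in a scaRNA of the same name (bases 65 to 86 of 127), stood at 2765, 2995, 2795 and 3745 CPM in neonatal libraries 1 to 4 and at 2601, 3660.0, 2818 and 3624 CPM in adult libraries 1 to 4. The groups overlapped (log2 fold change −0.05 ± 0.16, adjusted p = 0.808), and its sign turned under several settings. miR-1839-3p held 335 counts and had a log2 fold change of 0.22 ± 0.29 (adjusted p = 0.517), which was past the threshold with library totals (0.85, adjusted p = 0.0195) and without adult library 3 (0.64, adjusted p = 0.0365). The 5p arm made up 99.3% of pooled neonatal and 99.4% of pooled adult counts of the hairpin. miR-1291, bases 1 to 26 of the 138-base Snora34, had a log2 fold change of −0.62 ± 0.34 (adjusted p = 0.126) and passed when blocked by replicate number (adjusted p = 0.0155). The members miR-7650-5p (45 neonatal and 17 adult counts), miR-3084-5p (21 and 17) and miR-3084-3p (4 and 12) were below the count filter.

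A single member overlapped an annotated transfer RNA gene. The hairpin of miR-1983 (chr13:21896918-21897049, minus strand) overlaps the RefSeq isoleucine transfer RNA gene n-TItat14, whose strand the gene table used here does not give. miR-1983 stood at 19.2, 16.8, 14.8 and 20.0 CPM in neonatal libraries 1 to 4 and at 1.94, 3.50, 2.85 and 1.51 CPM in adult libraries 1 to 4. All neonatal libraries were far above all adult ones, and the miRNA rose (log2 fold change 2.83 ± 0.33, adjusted p = 1.2e-05).

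Among members past the count filter, the largest rises were those of members nearly without adult counts. miR-5134-3p and miR-3080-5p passed that filter through their neonatal libraries alone. A filter passed in this way favours a rise, so their p-values are descriptions. The same holds for miR-1983 above and for miR-1306-3p, miR-3057-5p, miR-7688-5p, miR-7661-3p and miR-6952-3p below. miR-5134-3p, whose hairpin lies in Ccnf, the gene of cyclin F (chr17:24234527-24234604, minus strand), had 82 neonatal counts and 1 adult count. It stood at 7.47, 10.3, 10.5 and 6.08 CPM in neonatal libraries 1 to 4 and at 0, 0.70, 0 and 0 CPM in adult libraries 1 to 4. The ratio of pooled counts, each divided by the pooled TMM-scaled library sizes of its group, was 56.0 (95% exact interval 9.78 to 2240). This interval covers counting error only and takes the TMM factors as given. All ratios and bounds of counts given below are scaled in the same way. miR-5134-3p rose (log2 fold change 5.33 ± 0.69, adjusted p = 2.83e-05). The fitted size rests on that 1 adult count, in adult library 2, and was 7.20 ± 0.95 without that library. Its other arm, miR-5134-5p, had 32 neonatal counts and 0 adult counts, which is at least 7.29-fold higher when the adult group is set to 3 counts in all, while the 95% exact interval of the ratio, which takes in the error of the neonatal counts, begins at 5.59.
miR-3080-5p, from an intron of Tcf20 (chr15:82959218-82959296, minus strand), had 71 neonatal and 3 adult counts. It stood at 8.0, 8.01, 6.97 and 6.79 CPM in neonatal libraries 1 to 4 and at 0, 0.70, 0.475 and 0.502 CPM in adult libraries 1 to 4, a ratio of pooled counts of 16.2 (5.31 to 80.3). It rose (log2 fold change 3.85 ± 0.50, adjusted p = 2.76e-05), and the groups did not overlap.

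The hairpin mir-1306 lies in an exon of Dgcr8 (chr16:18284239-18284317, minus strand), the gene of the Drosha partner named above. miR-1306-5p stood at 139, 72.9, 109 and 71.5 CPM in neonatal libraries 1 to 4 and at 48.6, 36.4, 56.6 and 33.6 CPM in adult libraries 1 to 4, and miR-1306-3p at 16.5, 13.0, 12.6 and 9.66 CPM in neonatal libraries 1 to 4 and at 4.86, 4.90, 2.38 and 3.01 CPM in adult libraries 1 to 4. All neonatal libraries were above all adult ones for both arms. The log2 fold changes were 1.16 ± 0.26 (adjusted p = 0.00204) and 1.82 ± 0.34 (adjusted p = 0.000477), and the 5p arm held 88.2% of pooled neonatal (84.9 to 89.6% by library) and 92.6% of pooled adult counts (88.1 to 96.0%).

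miR-3057-5p, from Apba3 on chromosome 10, stood at 14.4, 13.7, 8.71 and 12.9 CPM in neonatal libraries 1 to 4 and at 4.86, 1.40, 3.33 and 0.502 CPM in adult libraries 1 to 4. The groups did not overlap and it rose (log2 fold change 2.39 ± 0.46, adjusted p = 0.000554). miR-3079-5p stood at 43.8, 32.0, 27.9 and 29.3 CPM in neonatal libraries 1 to 4 and at 12.6, 7.00, 9.98 and 10.0 CPM in adult libraries 1 to 4, without overlap, and rose (log2 fold change 1.75 ± 0.26, adjusted p = 7.72e-05). It is the most abundant of the 10 largest rises among members past the count filter. miR-7688-5p, outside genes of its strand on chromosome 10, stood at 16.0, 6.10, 7.41 and 6.44 CPM in neonatal libraries 1 to 4 and at 0.971, 2.10, 1.90 and 1.51 CPM in adult libraries 1 to 4. Neonatal library 1 was the highest, no neonatal library lay within the adult range, and it rose (log2 fold change 2.34 ± 0.48, adjusted p = 0.00095).

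The 3 smallest of these 10 rises had 19 to 22 adult counts in all. miR-1930-5p, from Ube2g2, a ubiquitin-conjugating enzyme gene, stood at 12.3, 6.87, 8.71 and 15 CPM in neonatal libraries 1 to 4 and at 6.80, 2.10, 2.85 and 3.01 CPM in adult libraries 1 to 4, and adult library 1 lay just below the lowest neonatal value. Its log2 fold change was 1.63 ± 0.41 (adjusted p = 0.00351). miR-7661-3p, from Itpr1, the gene of a calcium channel of the endoplasmic reticulum, overlapped between groups at 4.96 to 11.3 and 1.4 to 5.83 CPM, with a log2 fold change of 1.41 ± 0.43 (adjusted p = 0.0117). miR-6952-3p, at 5.23 to 11.2 and 0.971 to 4.2 CPM, rose (log2 fold change 1.35 ± 0.42, adjusted p = 0.0126), but not without adult library 3 (1.28, adjusted p = 0.0536).

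**Figure D5:**
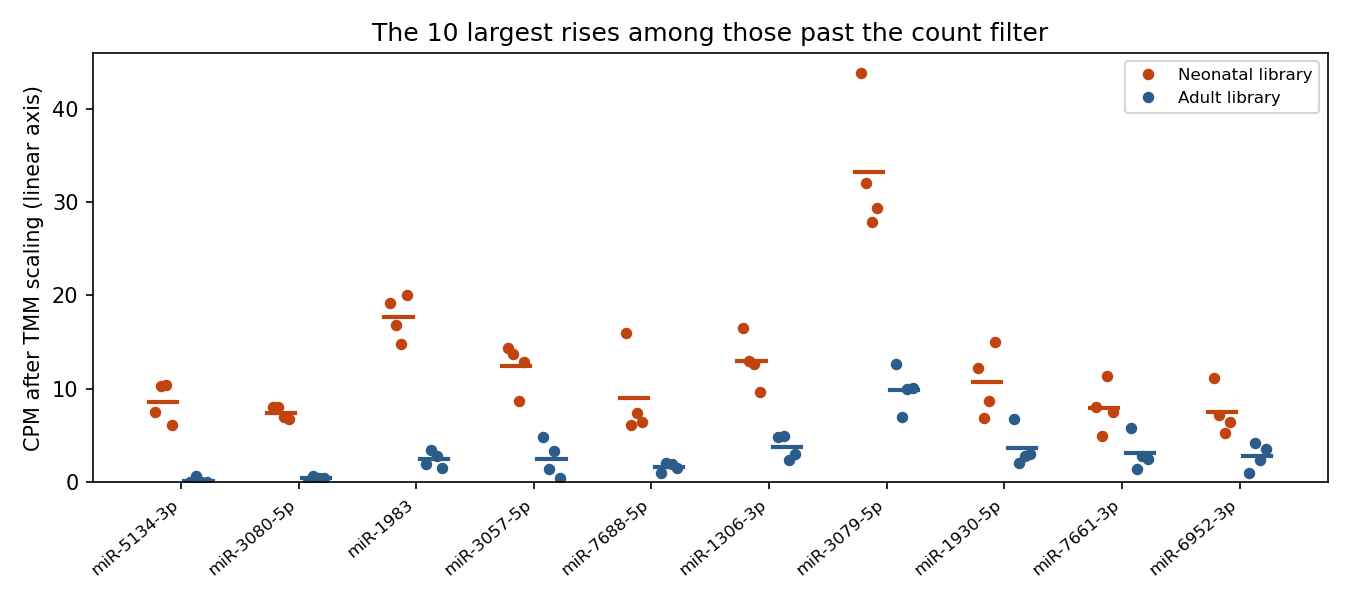
Level (CPM after TMM scaling, linear axis) of the 10 high-numbered miRNAs with the largest rises among those past the count filter, in each neonatal (red) and adult (blue) library, with group means as short lines. Adult libraries of miR-5134-3p and miR-3080-5p lie at or near 0, and miR-3079-5p has the highest levels, up to 43.8 CPM.

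Outside snoRNA and scaRNA genes 4 of the 62 members past the count filter fell (6.45%, against 34.1% of all tested). The rarer miR-6964-3p was lower in the fit of all miRNAs with 10 or more counts and is given further on. miR-3964 stood at 3.20, 7.63, 3.49 and 8.58 CPM in neonatal libraries 1 to 4 and at 17.5, 40.6, 27.6 and 30.1 CPM in adult libraries 1 to 4, without overlap, and had the largest fall of the members past the filter (log2 fold change −2.29 ± 0.35, adjusted p = 0.000115). Of its 252 counts, 58.7% were in values that were not whole, as when reads of several possible origins are divided. It shares a run of 13 letters, in capitals, with miR-142a-5p, a blood cell miRNA with 98008.5 counts.
miR-3964: auaagGUAGAAAGCACUAaa
miR-142a-5p: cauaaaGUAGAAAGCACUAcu
miR-142a-5p fell too (log2 fold change −1.66, adjusted p = 0.000417). Reads that fit both cannot be told apart, and their part in the level of miR-3964 was not tested. The search covered the 24 members with a RefSeq sequence that were named for abundance, for change or as their other arm. Of these, miR-3964 was the 1 with a run of more than 10 letters, while 21 shared 8 letters or more with some other detected miRNA.

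miR-1955-5p, from Phf21a on chromosome 2, stood at 5.34, 9.92, 9.15 and 6.08 CPM in neonatal libraries 1 to 4 and at 22.3, 16.8, 17.6 and 17.1 CPM in adult libraries 1 to 4, without overlap, and fell (log2 fold change −1.24 ± 0.27, adjusted p = 0.00146). Its other arm, miR-1955-3p, had 25 neonatal and 22 adult counts and was below the filter. miR-1949 stood at 28.3, 26.7, 20.5 and 17.5 CPM in neonatal libraries 1 to 4 and at 52.4, 39.9, 46.6 and 37.1 CPM in adult libraries 1 to 4, also without overlap (log2 fold change −0.92 ± 0.22, adjusted p = 0.0028). With library totals neither passed (−0.61, adjusted p = 0.0639, and −0.28, adjusted p = 0.287). miR-6406 stood at 4.27, 2.67, 6.54 and 5.01 CPM in neonatal libraries 1 to 4 and at 18.5, 3.50, 11.4 and 8.53 CPM in adult libraries 1 to 4, with overlap through adult library 2. Its call (log2 fold change −1.13 ± 0.45, adjusted p = 0.042) was lost without any library other than neonatal 3 and adult 2 (adjusted p = 0.0685 to 0.143), and with RLE scaling, library totals, DESeq2 and limma-voom.

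Hairpins that begin or end at the edge of an intron were common among members. At least 1 end lay within 10 bases of an annotated intron end for 85 of the 204 members with a position, and for 7 of 327 other miRNAs. Both ends did so for 8 members, the shape of a mirtron, and no member was called a mirtron from this alone. The 85 held 6.40% of the members' counts, of which miR-5121 took most, and their median total was 20 counts. In the fit of all miRNAs with 10 or more counts, 14 of the 85 rose (16.5%) and 2 fell (2.35%), against 22.1% higher and 21.1% lower of all 646 (median log2 fold change 0.95, against 0.15 for all). The share that rose was thus below that of all. After the GC offset in that fit 11 rose and 2 fell (median 0.87), against 19.2% and 24.1% of all.

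Several of these hairpins lie in genes of T cell signalling, and were picked for that after their values had been seen. miR-7058-5p, with both ends at an intron of Lat, the adaptor of the T cell receptor, had 99 neonatal and 61 adult counts and a log2 fold change of 0.16 ± 0.30 (adjusted p = 0.665). miR-6957-3p, in Grap2, another adaptor of that receptor, had 189 and 137 counts and a log2 fold change of −0.10 ± 0.21 (adjusted p = 0.681). miR-6973a-3p, in Ltb, the gene of lymphotoxin beta, had 55 and 54 counts and a log2 fold change of −0.55 ± 0.47 (adjusted p = 0.319). None of these passed the test. Of the 13 intron-end members past the filter, 3 rose (23.1%) and 1, miR-5121, fell (7.69%), against 29.1% and 34.1% of all tested. The risers were miR-5134-3p, miR-3064-5p in the RNA helicase gene Ddx5, with a log2 fold change of 1.19 ± 0.27 (adjusted p = 0.00176), and miR-6989-3p in the kinase gene Map4k2, with 0.81 ± 0.32 (adjusted p = 0.0427). Among the rarer ones, miR-3062-5p, with both ends at an intron of Pfas, a purine synthesis gene, had 25 neonatal counts and 1 adult count. Its ratio was 17.1 (2.80 to 702). miR-6964-3p, in C2cd2, went the other way with 1 and 14 counts, a ratio of 0.0488 (0.00115 to 0.321). Its log2 fold change was −3.76 ± 0.96 (adjusted p = 0.00438) in the fit of all miRNAs with 10 or more counts. Each of these rarer members reached the total of 10 counts only through its higher group, and that total admits a miRNA to this fit. Their values are thus descriptions.

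Counts near 0 lay mostly on the adult side. Of the 230 members, 9 had no adult count and 31 had 1 to 3, while 0 had no neonatal count and 2 had 1 to 3. A member near 0 in 1 group reached the total of 10 counts through the other group, so the bounds below are descriptions. The same was not counted for the 416 other miRNAs. Whether it is particular to the members was not tested. Library totals were of like size before scaling, 1454421 to 2416060 counts (neonatal) and 1281032 to 2606630 counts (adult). After TMM scaling, 1 count stood for 0.357 to 0.533 CPM (neonatal, mean 0.427) and for 0.475 to 0.971 CPM (adult, mean 0.662). At equal CPM an adult library thus gave fewer counts on average. The part of this difference in the counts near 0 was not tested. More miRNAs of any kind had a count in neonatal libraries, as given above. The 9 without an adult count had 10 to 32 neonatal counts, so the bounds on their rise against 3 adult counts are 2.28-fold to 7.29-fold. The lower ends of the 95% exact intervals of the same ratios are 1.53 to 5.59.

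Arms and number blocks divided the calls as follows, in the fit of all miRNAs with 10 or more counts, where 22.1% of all 646 were higher and 21.1% lower. Names with a 5p arm (76 members) counted 24 higher (31.6%) and 3 lower (3.95%, median 0.87), names with a 3p arm (85) 10 (11.8%) and 3 (3.53%, median 0.50), and names without an arm (69) 13 (18.8%) and 5 (7.25%, median 0.22). With the GC offset these counts became 20 and 4, 6 and 6, and 7 and 10, so that the balance turned for names without an arm. With library totals they became 37 and 2, 23 and 2, and 22 and 1. Of all 646, the GC offset gave 19.2% higher and 24.1% lower (43.3% in either direction), and library totals 39.5% and 11.5% (50.9% in either direction). The 69 without an arm held 76.2% of the members' counts. Both arms were members for 24 hairpins, with the 5p arm larger for 15 and the 3p arm for 9, and the arms were within 2-fold for 9. By number, the block from 1000 on (41 members) counted 15 higher and 2 lower (median 0.43), that from 3000 on (41) 11 and 4 (median 0.11), that from 5000 on (21) 3 and 1 (median 0.33), that from 6000 on (53) 7 and 4 (median 0.54) and that from 7000 on (56) 8 and 0 (median 0.87). With the GC offset the same blocks counted 10 and 6, 8 and 5, 2 and 2, 5 and 4, and 6 and 1, and with library totals 21 and 0, 14 and 3, 7 and 0, 18 and 2, and 17 and 0. The blocks from 6000 and 7000 on held 0.711% and 0.533% of the members' counts, and no difference between blocks or arms was tested.

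Position and base content gave these counts in the same fit, to be read against the same 22.1% higher and 21.1% lower of all. Hairpins within introns (115 members) counted 20 higher (17.4%) and 2 lower (1.74%, median 0.59), those overlapping an exon (63) 13 (20.6%) and 6 (9.52%, median 0.48), and those outside genes (26) 7 (26.9%) and 2 (7.69%, median 0.37). With the GC offset introns counted 14 and 3, exon overlap 10 and 12, and outside genes 4 and 3, so that the balance turned for exon overlap. With library totals they counted 36 and 1, 26 and 3, and 11 and 1. The 26 outside genes held 61.0% of the members' counts, since miR-5099 and miR-3968 are among them. Sequences with 60% G and C or more (60 members) counted 12 higher (20.0%) and 1 lower (1.67%, median 0.66), and those under 60% (144) 29 (20.1%) and 9 (6.25%, median 0.46). After the GC offset in that fit both had a median of 0.25, the first counted 5 higher and 6 lower, a turned balance, and the second 23 and 13. With library totals the counts were 25 and 0, and 48 and 5. Mostly fractional counts were found for 9 members, against 118 of the 416 others.

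At the edge of the rule, 12 members had a total of exactly 10 counts, among them miR-1943-3p, miR-5123, miR-7013-5p and miR-8091. Just outside lay miR-3473a with 9.34 counts and 12 miRNAs with 9, among them miR-1932 and miR-3057-3p, the other arm of miR-3057-5p. A member at 10 counts could owe most of them to 1 library, as miR-7013-5p, with 8 counts in neonatal library 2 and 2 in adult library 4.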

How the data were processed

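Small RNA of 4 neonatal and 4 adult libraries of CD8+ T cells had been size selected after NEBNext library preparation, per the labels' protocols. Values are estimated counts, deposited by the authors without normalization for each pair of mature miRNA and hairpin, and 71.4% of the non-zero values were whole within 0.001. Per the submitters' processing notes the build is mm10. The aligner and counter were not given in the sources used here. Counts were summed over precursors and rounded. miRNAs were kept by filterByExpr (minimum count 10, minimum total 15) and tested by the quasi-likelihood F test of edgeR 4.0.16 in R 4.3.3 with TMM scaling, robust dispersions and Benjamini-Hochberg adjustment at 0.05 over all miRNAs tested. The procedure was run on simulated counts with the same dispersion for all miRNAs and changes of random sign. That run thus did not test the dependence on scaling described above. Alternatives used other scalings and filters, DESeq2 1.42.0, limma 3.58.1 (voom), a GC offset by loess (span 0.75), the replicate number as a block, and 7 libraries at a time. Sequences and hairpin positions came from RefSeq GRCm38.p6, and host genes and snoRNAs from GENCODE vM21 of the same build.

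For replicate numbers 1 to 4, the neonatal and the adult library departed from their group means with correlations of 0.415, 0.324, 0.256 and 0.393. Unlike numbers ran from −0.533 (neonatal library 4 with adult library 1) to 0.482 (neonatal library 4 with adult library 2), while all like numbers were above 0. What a number stands for is not given. The replicate number was therefore used as a block in alternative fits only. The main test used age group alone and did not pair libraries. Named members were the 10 most abundant, up to 10 with the largest rise and fall past the threshold, the other arms of these, and those at the edge of the rule. The members and lists were chosen with earlier results of these data known.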

Additional observations from a re-analysis of the deposited data

Results flagged for a closer look

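Levels of 3 members stood out because 1 library lay far from the other 3 of its group. miR-7688-5p was at 16.0 CPM in neonatal library 1, against 6.10 to 7.41 CPM in the other neonatal libraries. miR-6516-3p was at 9.60 CPM in neonatal library 1, against 1.31 to 1.53 CPM in the others. miR-1955-5p was at 22.3 CPM in adult library 1, against 16.8 to 17.6 CPM. In all, 48 groups of 4 libraries were looked at and 3 stood out, and chance alone gives about 1 in 20.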

How the results depend on the processing

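Named members were refitted under the alternatives, with 532 outcomes on the same side of the threshold and in the same direction, 35 that lost the call, 24 that gained it and 17 with the sign turned. Members higher, 23 as reported, became 39 with library totals, 47 for all with 10 or more counts, 53 with no filter and 14 with at least 10 CPM in 4 libraries. Members lower, 10 as reported, became 4 with library totals. All miRNAs higher and lower, 109 and 128, became 186 and 68 with library totals. Members in snoRNAs or scaRNAs that were lower, 6 as reported, became 3. Chosen after the data were seen, the set of 10 or more counts with library totals gave 82 members higher and 5 lower, 255 and 74 of all miRNAs, and 3 of the snoRNA and scaRNA members lower, and with the GC offset it gave 20 members lower. The cause was not tested, other than that the count filters change how many miRNAs are tested. The block by replicate number gave 27 members higher and 12 lower. It brought miR-5099, miR-3963 and miR-1291 past the threshold and ended no call among the named members.

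The sign of miR-1839-5p (−0.05) turned with RLE scaling (0.0636), library totals (0.58), DESeq2 (0.0636), no filter (0.0318), the GC offset (0.20), that offset with the block (0.21) and, added later, all with 10 or more counts on library totals (0.58). miR-1198-5p (0.22) turned with the GC offset (−0.0347), with the block too (−0.0471) and for all with 10 or more counts (−0.0782), and miR-1964-3p (−0.30) with library totals (0.33, and 0.33 for all with 10 or more counts). Without miR-5099 the members' share was 1.88% in neonatal and 1.29% in adult libraries.

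Leaving out each library in turn gave 19 to 29 members higher, 8 to 10 lower, 103 to 126 and 116 to 134 of all miRNAs higher and lower, 5 to 6 snoRNA and scaRNA members lower, shares of 3.08 to 3.43% (neonatal) and 1.72 to 2.15% (adult), and −0.175 to 0.0601 for miR-1839-5p. At this depth 159 of 230 members could not be tested in the main comparison.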
